A study of Mus musculus with 6 samples.

Results

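A set of 10 muscle genes that take part in fibre wasting were followed in soleus, a postural hindlimb muscle, of WT mice and of mice labelled StarD7 mKO, after the lipid transfer protein StarD7. They were the ubiquitin ligase genes Fbxo32, Trim63, Fbxo30, Fbxo31, Fbxo40 and Fbxo21, the FoxO transcription factor genes Foxo1, Foxo3 and Foxo4, and the transcription factor gene Klf15. Members were taken by gene name, 10 of the 43074 names listed for each library. The genotypes were given as WT (also named control) and StarD7 mKO, with 3 libraries each, and both groups were soleus. The series text counts 3 mice per group, but the labels tie no library to an animal, so p-values measure only the spread between these samples, which may be technical. The Cre driver or promoter, the exons removed and the age and sex of the mice are not given in the sources used here, and the labels do not name the cell types targeted.

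Muscle fibres lose mass when proteins are broken down faster than they are made, and much of that breakdown runs through ubiquitin ligases, which mark proteins for the proteasome. Fbxo32 (atrogin-1, also MAFbx) and Trim63 (MuRF1) are the best known ligase genes induced in wasting muscle. FoxO factors switch them on, Akt downstream of insulin and IGF1 keeps FoxO out of the nucleus, and glucocorticoids act on Trim63 and on Klf15 through the glucocorticoid receptor.

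The promoters of 3 ligase genes are shown because their letters differ in the motifs they hold and Trim63 had the largest difference of the members. Each is the 250 bases before the annotated start, from RefSeq on GRCm38.p6, 5′ to 3′ on the strand of the gene. Trim63 lies at chr4:134314870-134315119 on the plus strand, and capitals mark, in this order, a match to the glucocorticoid response element GAACANNNTGTTC, a match to the FoxO motif GTAAACA on the reverse strand, and TATAAA, while 3 E-boxes stay in lower case.
Trim63: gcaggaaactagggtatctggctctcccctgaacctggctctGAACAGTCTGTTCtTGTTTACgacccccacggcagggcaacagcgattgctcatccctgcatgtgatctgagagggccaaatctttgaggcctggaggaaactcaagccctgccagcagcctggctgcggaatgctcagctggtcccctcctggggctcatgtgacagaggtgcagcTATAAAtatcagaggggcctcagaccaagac
Fbxo40 lies at chr16:36990468-36990717 on the minus strand, and capitals mark E-boxes (CANNTG), the motif of myogenic factors, while a CCACCC match stays in lower case.
Fbxo40: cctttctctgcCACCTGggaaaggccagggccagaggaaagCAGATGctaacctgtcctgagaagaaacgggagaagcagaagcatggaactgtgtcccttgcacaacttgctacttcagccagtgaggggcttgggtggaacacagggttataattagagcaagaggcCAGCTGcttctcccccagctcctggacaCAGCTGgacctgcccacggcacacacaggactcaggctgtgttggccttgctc
Fbxo31 lies at chr8:121578807-121579056 on the minus strand, and capitals mark the motif CCACCC of Krüppel-like factors, read on the reverse strand.
Fbxo31: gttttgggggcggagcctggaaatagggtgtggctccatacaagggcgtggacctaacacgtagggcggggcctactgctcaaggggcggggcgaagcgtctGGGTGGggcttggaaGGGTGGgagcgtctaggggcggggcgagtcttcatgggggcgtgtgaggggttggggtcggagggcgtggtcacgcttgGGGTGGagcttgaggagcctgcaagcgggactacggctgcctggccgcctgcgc

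In the Trim63 window the glucocorticoid match ended 196 bases before the start and the FoxO match began 194 bases before it, which left 1 base between them. All motifs were searched on both strands, and the glucocorticoid and FoxO motifs were counted separately where they lay close. Of 32851 such windows of 27025 genes, 3.17% held the FoxO motif and 0.0396% (13 windows) the glucocorticoid motif. The Trim63 window was the 1 window with both. E-boxes were in 66.2% of windows, CCACCC in 28.1% and TATAAA in 12.4%. Of the members, 8 had an entry, in 9 windows, Fbxo40 with 2. The windows of Fbxo30, Fbxo21 and Foxo3 held none of the 5 motifs, which says only that these letters are not in these bases. The windows of Trim63 and Fbxo40 held 4 CpG and 2 and 2 CpG. These counts lay under the median of 6 over all windows but not under the lower quartile of 2 (upper quartile 16). Those of Fbxo31, Fbxo21, Foxo1, Foxo3, Klf15 and Fbxo30 held 18, 20, 20, 31, 37 and 40.

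Values are TPM, a transcript level corrected for gene length and expressed per fixed library sum, so levels can be compared between genes. Reads recovered from the TPM came to between 42928774 and 51287999 per library, and 58.55% of the recovered values were even, so a read pair may in part count as 2 reads. Stard7 was at 87.5, 95.4 and 94.99 TPM in WT and at 21.8, 21.3 and 34.6 TPM in mKO (log2 fold change −1.83, SE 0.16, adjusted p = 0.00585, limma-trend). The mKO library with the most Stard7, replicate 3, also stood apart in the fast myosin gene Myh1, at 635.5 TPM against 112.9 and 82.7 in the other mKO libraries and 3409, 3109 and 2505 in WT. Mitochondrially encoded genes held 42.1 to 45.1% of the TPM in WT and 46.85 to 48.9% in mKO, and a larger share there lowers the TPM of every other gene. Leaving them out moved the median over all genes tested from −0.01 to 0.09 (log2). The 10 genes that define skeletal muscle, among them Acta1 and Ckm, summed to 71800 to 77290 TPM in WT and to 65270 to 70070 TPM in mKO, and none was at 0.

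None of the 10 members passed the test between genotypes. With limma-trend on log2(TPM + 1) and Benjamini-Hochberg adjustment over 12301 genes (those that reached 1 TPM in 3 libraries or more), 0 of 10 members were called at an adjusted p of 0.05, against a background of 0.520% of genes (0.0976% higher and 0.423% lower). At an unadjusted p under 0.05 there were 3 members, Foxo4, Trim63 and Fbxo31, all with lower values in mKO, where the background was 10.7% in either direction and 6.90% lower. Limma-voom on the recovered reads also called 0 members (background 0.821% at the adjusted threshold). By limma-voom, Foxo4, Trim63 and Fbxo31 again had lower values in mKO (adjusted p = 0.208, 0.208 and 0.382). Fbxo32 had a log2 fold change of 0.18 there (adjusted p = 0.317), where the median of all genes was 0.04. Groups did not overlap, with mKO lower, for 2 of the 10, Foxo4 and Fbxo31, against 10.3% of genes, and none had all mKO libraries above all WT libraries, against 5.67%. The members had a median of −0.10 on the log2 scale, beside −0.01 for all genes tested, and of 0.02 beside 0.09 with mitochondrially encoded genes left out. With 1 library left out it ran from −0.14, without WT replicate 1, to −0.03, without mKO replicate 1, and its distance from the median of all genes shrank from −0.08 to −0.02 without WT replicate 3. Once each library was rescaled with mitochondrially encoded genes left out, the groups did not overlap for Foxo4, lower in mKO (1 of 10 members, against 2.71% of genes), and for Fbxo32 and Fbxo30, higher in mKO (2 of 10, against 23.9%), and they overlapped for Fbxo31. In whole muscle, fewer cells of a type and less RNA per cell cannot be told apart.

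**Figure D1:**
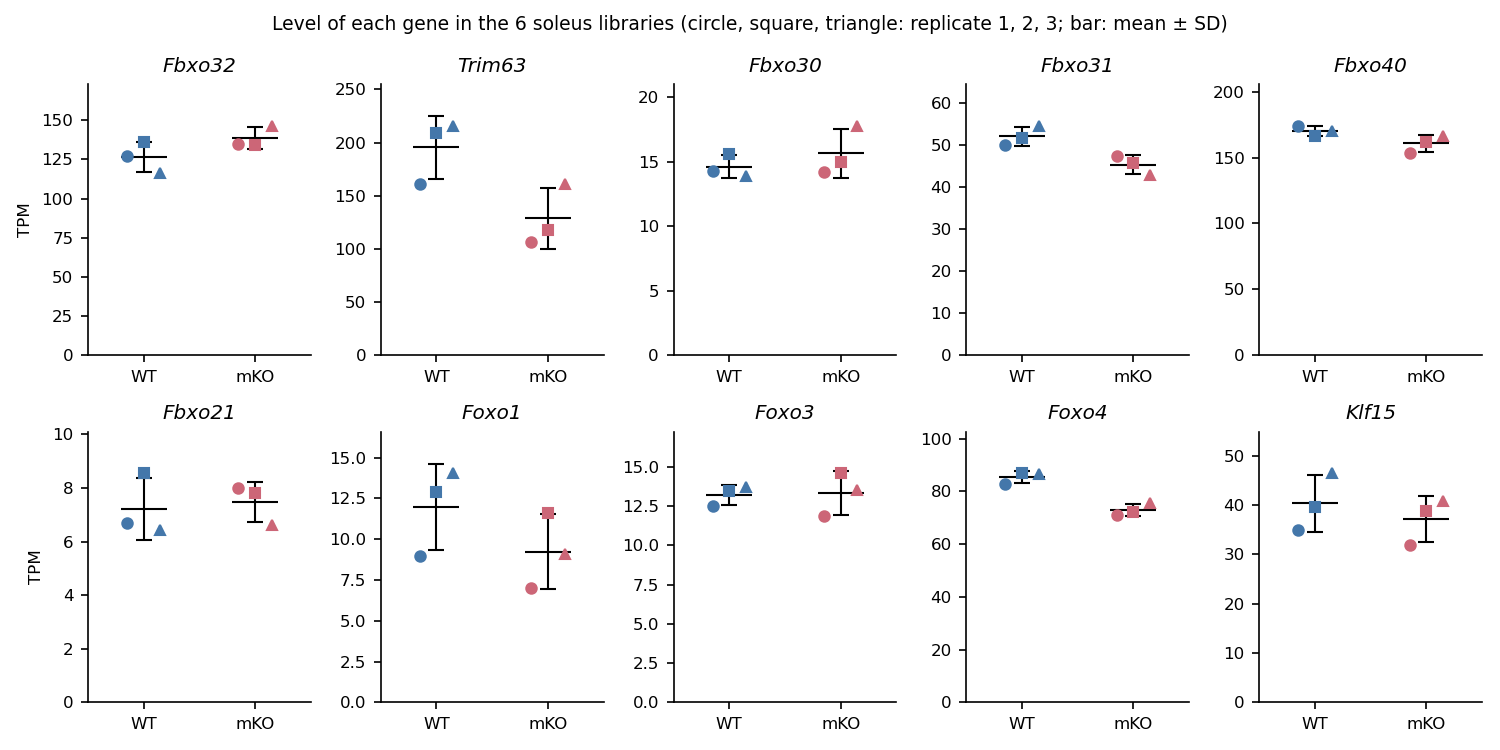
TPM of each of the 10 members in the 3 WT and 3 mKO libraries, 1 panel per gene with its own axis from 0; points are libraries and bars are group means with SD. Trim63, Foxo4 and Fbxo31 lie lower in mKO, with an overlap of the groups only for Trim63, where mKO replicate 3 (161.5 TPM) just passes WT replicate 1 (161.3 TPM).

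Trim63, the RING ligase that marks thick filament proteins of the sarcomere, was at 161.3, 209.2 and 215.8 TPM in WT and at 106.9, 118.1 and 161.5 TPM in mKO. The highest mKO library, replicate 3, reached the lowest WT library, and the other mKO libraries lay below all of WT. The means were 195.4 ± 29.8 and 128.8 ± 28.8 TPM (SD, n = 3 each), which put mKO at 65.9% of WT (95% confidence interval 50.5 to 85.2%). On the log2 scale the difference was −0.61 (SE 0.16, unadjusted p = 0.00599, adjusted p = 0.217, limma-trend), from 6224 to 13373 reads per library. Without mKO replicate 3, the library with the most Stard7, Trim63 was called lower (−0.78, adjusted p = 0.0485), where the background of genes called lower was 0.623%. Over the 16 alternative settings the log2 fold change ran from −0.78 to −0.49 and the adjusted p from 0.0485 to 0.609. With mitochondrially encoded genes left out it was −0.49 (adjusted p = 0.202).

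Fast fibre genes differed between the same libraries. Of 18 listed, 8 were called lower in mKO and none higher, against 0.423% of all genes called lower and 0.0976% higher. The list was chosen with earlier results of these data known. The count was 4 with mitochondrially encoded genes left out and 3 with no filter on low values. It ran from 3 without WT replicate 2 to 15 without mKO replicate 3. The median of the 18 was −0.64 (log2). Their summed level was 51580 to 58850 TPM in WT and 31170 to 39940 TPM in mKO. None of the 18 was at 0 in all libraries, but Mybpc2, a fast myosin binding protein, stood at 0.324, 0.356 and 1.26 TPM in mKO against 163.0, 187.8 and 156.8 TPM in WT (log2 fold change −6.73, SE 0.20, adjusted p = 8.37e-06, limma-trend). Of 15 slow fibre genes 1 was called, Pln, the phospholamban gene, higher in mKO (1.52, SE 0.09, adjusted p = 0.000742). The slow genes summed to 20860 to 27150 TPM in WT and 22680 to 30880 TPM in mKO. The part of fibre type in the Trim63 result was not tested.

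Fbxo32, the F-box subunit that brings substrates such as Eif3f and MyoD to an SCF ligase, was at 127.3, 135.9 and 116.6 TPM in WT and at 134.9, 134.3 and 146.5 TPM in mKO. The groups overlapped through WT replicate 2, and the highest library of all was mKO replicate 3. The means were 126.6 ± 9.69 and 138.6 ± 6.89 TPM (SD, n = 3 each), with mKO at 109.5% of WT (95% confidence interval 98.2 to 122%). On the log2 scale the difference was 0.13 (SE 0.07, adjusted p = 0.561, limma-trend). It lay above 0 in all 16 alternatives, from 0.07 to 0.25, the highest with mitochondrially encoded genes left out (unadjusted p = 0.00371, adjusted p = 0.134). The pair of best known atrophy ligases therefore had mean differences of opposite sign, and neither passed the test.

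Trim63 relative to Fbxo32 separated the genotypes by library. The ratio of their TPM was 1.27, 1.54 and 1.85 in WT and 0.793, 0.879 and 1.10 in mKO, a mean of 1.55 ± 0.293 against 0.925 ± 0.160 (SD, n = 3 each). All WT libraries had more Trim63 than Fbxo32, while 2 of the 3 mKO libraries had less. A ratio within a library does not depend on the scaling to a fixed sum, and it shows unequal difference, not which gene differed. It was chosen after the values were seen and has no test. Leaving out any 1 library kept the difference of −0.63 between −0.77 and −0.48.

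**Figure D2:**
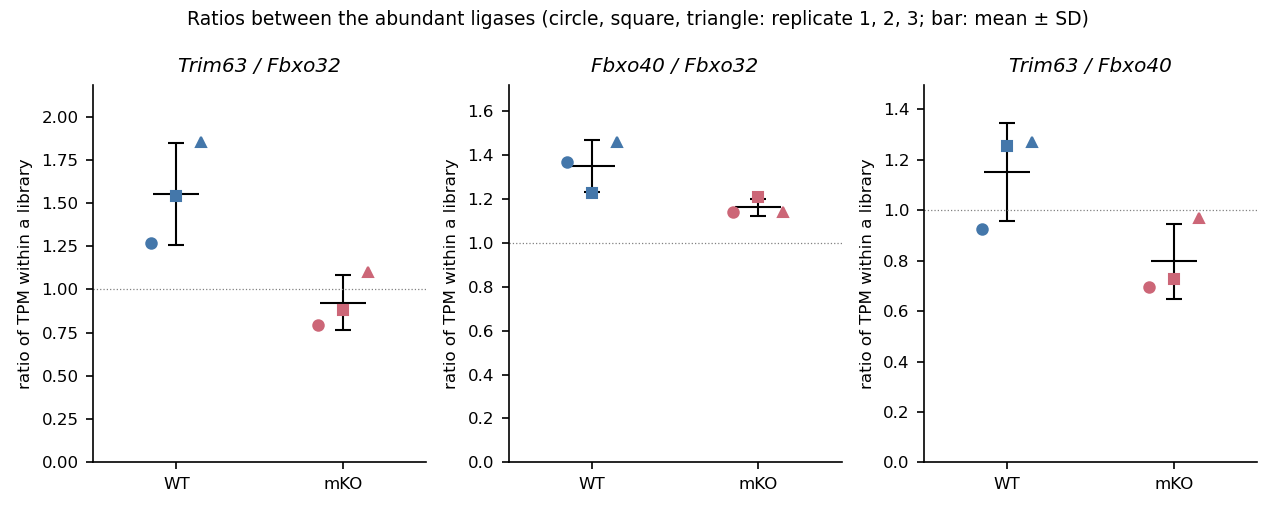
Ratios of TPM within each library for Trim63 to Fbxo32, Fbxo40 to Fbxo32 and Trim63 to Fbxo40, on axes from 0; points are the 3 WT and 3 mKO libraries, bars are means with SD, and the dotted line marks equal levels. The Trim63 to Fbxo32 ratio lies between 1.27 and 1.85 in WT and between 0.793 and 1.10 in mKO, while the Trim63 to Fbxo40 ratio overlaps between genotypes.

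Fbxo40, a muscle-restricted F-box protein known to target Irs1, was at 174.2, 166.5 and 170.0 TPM in WT and at 153.7, 162.2 and 166.7 TPM in mKO. The groups overlapped by a small margin, since mKO replicate 3 passed WT replicate 2. The mKO mean was 94.5% of WT (log2 fold change −0.08, SE 0.05, 95% confidence interval −0.20 to 0.03, adjusted p = 0.635, limma-trend). Its sign turned to 0.04 with mitochondrially encoded genes left out. Its ratio to Fbxo32 was 1.37, 1.23 and 1.46 in WT and 1.14, 1.21 and 1.14 in mKO, without overlap.

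Fbxo31, an F-box protein known to target cyclin D1, was at 50.1, 51.7 and 54.6 TPM in WT and at 47.3, 45.8 and 43.0 TPM in mKO. Each mKO library lay below each WT library, and mKO replicate 3 was the lowest, the reverse of its place for Trim63. The mKO mean was 87.0% of WT (95% confidence interval 79.3 to 96.0%; log2 fold change −0.20, SE 0.06, unadjusted p = 0.0110, adjusted p = 0.273, limma-trend). With mitochondrially encoded genes left out the log2 fold change was −0.08 (adjusted p = 0.509), less than its main value by over 1.5 times.

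Fbxo30 (MUSA1), a ligase gene that BMP signalling holds down, was at 14.3, 15.6 and 13.9 TPM in WT and at 14.2, 15.0 and 17.8 TPM in mKO. The groups overlapped and only mKO replicate 3 stood above WT. Its log2 fold change was 0.09 (SE 0.09, 95% confidence interval −0.12 to 0.30, adjusted p = 0.805, limma-trend) and −0.003 without that library. Fbxo21 (SMART), the least abundant member, was at 6.71, 8.56 and 6.43 TPM in WT and at 7.995, 7.81 and 6.62 TPM in mKO. Its groups overlapped fully, with a log2 fold change of 0.05 (SE 0.12, 95% confidence interval −0.22 to 0.31, adjusted p = 0.927).

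Foxo4 was the most abundant FoxO gene of this muscle. It was at 82.7, 86.9 and 86.7 TPM in WT and at 71.0, 72.2 and 75.5 TPM in mKO. All mKO libraries lay below all WT libraries, and the libraries of each genotype lay close together. The means were 85.4 ± 2.39 and 72.9 ± 2.37 TPM (SD, n = 3 each), with mKO at 85.3% of WT (95% confidence interval 78.9 to 92.7%). On the log2 scale the difference was −0.23 (SE 0.05, unadjusted p = 0.00207, adjusted p = 0.143, limma-trend), the smallest p of the 10 members. It stayed below 0 in all 16 alternatives, from −0.25 to −0.11, the smallest difference with mitochondrially encoded genes left out (adjusted p = 0.283).

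Foxo1, the FoxO gene known to be induced by fasting in muscle, was at 8.99, 12.9 and 14.1 TPM in WT and at 6.998, 11.6 and 9.09 TPM in mKO. The groups overlapped and replicate 1 was the lowest library of either genotype. Its mKO mean was 77.0% of WT, but the libraries varied so much that the log2 fold change of −0.35 had an SE of 0.20 (95% confidence interval −0.80 to 0.10, adjusted p = 0.596, limma-trend). Without WT replicate 1 it was −0.52 (adjusted p = 0.359), and over all 16 alternatives it ran from −0.52 to −0.18. Foxo3, the FoxO factor shown to drive the Fbxo32 promoter, was at 12.5, 13.4 and 13.7 TPM in WT and at 11.9, 14.6 and 13.5 TPM in mKO. The mKO libraries spread wider and passed WT at both ends, with a log2 fold change of 0.01 (SE 0.08, 95% confidence interval −0.19 to 0.20, adjusted p = 0.989).

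Together with Foxo6, which is no member, the FoxO genes summed to 114.2, 125.5 and 122.4 TPM in WT and to 100.1, 106.2 and 105.7 TPM in mKO, without overlap. With mitochondrially encoded genes left out and each library rescaled, the sums were 202.0, 216.8 and 223.0 in WT and 195.9, 199.8 and 204.2 in mKO, and WT replicate 1 lay below mKO replicate 3. Foxo4 held 72.4, 69.3 and 70.8% of that sum in WT and 70.9, 68.0 and 71.5% in mKO. The share thus overlapped between genotypes (70.8 ± 1.56% and 70.1 ± 1.89%, SD, n = 3 each). Sum and share were chosen after the values were seen. These are RNA levels, and FoxO activity, which turns on phosphorylation and place in the cell, was not measured.

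Klf15, a glucocorticoid-induced factor that drives breakdown of branched-chain amino acids, was at 34.98, 39.5 and 46.5 TPM in WT and at 31.8, 38.7 and 40.8 TPM in mKO. The groups overlapped, and replicate 1 was again the lowest library of either genotype. On the log2 scale the difference was −0.11 (SE 0.12, 95% confidence interval −0.39 to 0.17, adjusted p = 0.807, limma-trend), and 0.0004 with mitochondrially encoded genes left out.

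**Figure D3:**
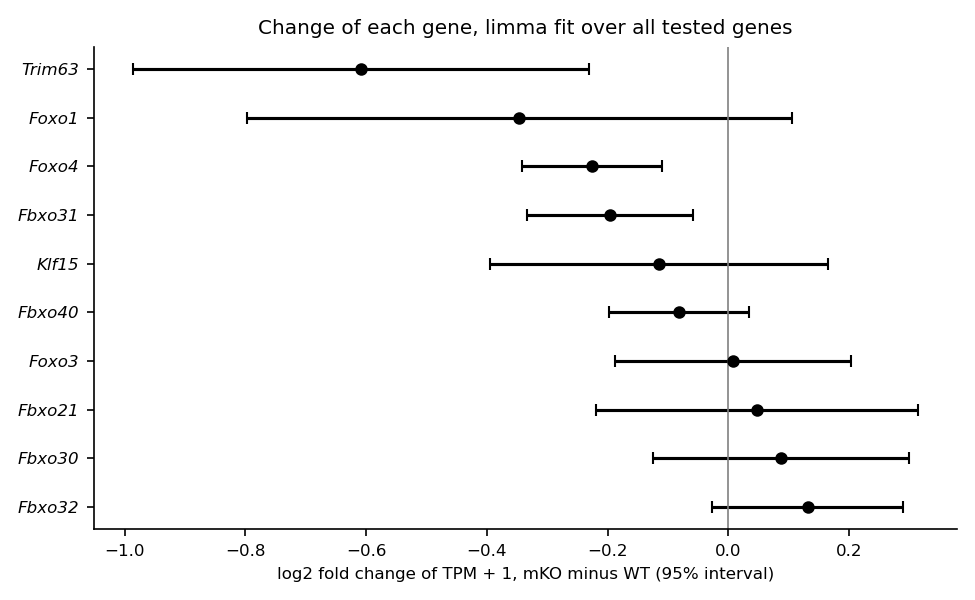
Log2 fold change of each member, as mKO minus WT in units of log2(TPM + 1), with its 95% confidence interval from limma-trend. The intervals of Trim63 (−0.99 to −0.23), Foxo4 (−0.34 to −0.11) and Fbxo31 (−0.33 to −0.06) lie below 0 before adjustment over all genes, and no member passed after it.

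**Figure D4:**
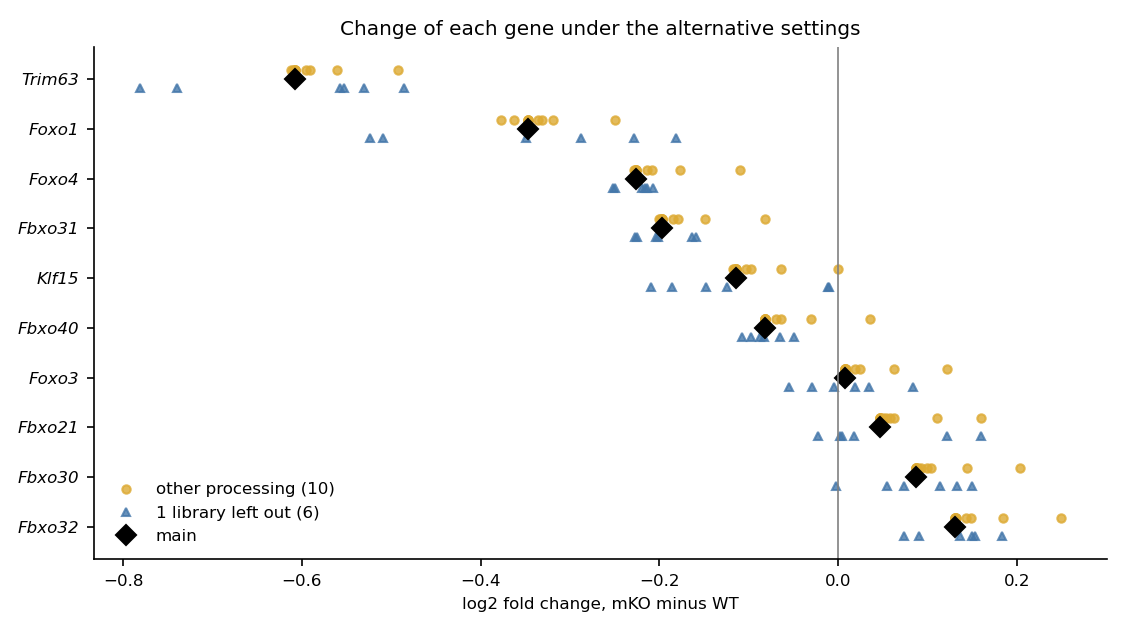
Log2 fold change of each member under the main setting and under each of the 16 alternatives, mKO minus WT. Trim63, Fbxo31, Foxo1 and Foxo4 stay below 0 and Fbxo32 above 0 in all 16, while Fbxo30, Fbxo40, Fbxo21, Foxo3 and Klf15 cross 0 in at least 1.

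The order of levels shifted at its top. In WT it ran Trim63, Fbxo40, Fbxo32, Foxo4, Fbxo31, Klf15, Fbxo30, Foxo3, Foxo1 and Fbxo21. Trim63 and Fbxo40 overlapped there, with Trim63 above in 2 of the 3 libraries, and so did Foxo3 and Foxo1. In mKO the order began Fbxo40, Fbxo32 and Trim63, and the rest followed as in WT. In mKO, Fbxo32 and Trim63 overlapped, as did Fbxo30 and Foxo3, and Foxo1 and Fbxo21. The abundant members, from Trim63 to Klf15, thus stood apart from the scarce ones, from Fbxo30 to Fbxo21, in both genotypes.

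Fbxo40, Fbxo32 and Fbxo31 led the Fbxo family in level, whereas Trim63 did not lead the Trim family. Of 36 Fbxo names, 25 passed the filter on low values, and Fbxo40, Fbxo32 and Fbxo31 ranked 1, 2 and 3 by mean TPM, Fbxo30 ranked 9 and Fbxo21 ranked 15. No Fbxo gene was called, and the median log2 fold change of the 25 was 0.02. Of 69 Trim names, 34 passed the filter and none was called, with a median of 0.02. Trim63 ranked 3 there, after Trim72, a membrane repair protein (399.0 ± 14.7 TPM in WT), and Trim54 (MuRF3). The close relatives of Trim63 had smaller differences: Trim54 was at 393.3 ± 9.99 TPM in WT and at 380.1 ± 3.58 TPM in mKO (SD, n = 3 each; log2 fold change −0.05, adjusted p = 0.766, limma-trend). Trim55 (MuRF2) was at 52.7 ± 1.45 and 54.3 ± 4.53 TPM (log2 fold change 0.04, adjusted p = 0.901). Whether Trim63 differed from them was not tested. Its share of the summed MuRF TPM was 26.1, 32.3 and 32.8% in WT and 19.5, 21.3 and 27.5% in mKO, which overlapped, and its ratio to Fbxo40 was 0.926, 1.26 and 1.27 in WT and 0.695, 0.729 and 0.969 in mKO.

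Upstream of FoxO, 0 of 39 insulin and IGF signalling genes were called, with a median log2 fold change of −0.03 (0.08, beside 0.09 for all genes, with mitochondrially encoded genes left out). An unadjusted limma-trend p under 0.05 was found for 4 of them, 10.3% against 10.7% of all genes tested. Trib3, a pseudokinase that binds Akt, was at 2.61, 2.34 and 1.38 TPM in WT and at 2.94, 4.17 and 3.34 TPM in mKO (log2 fold change 0.54, SE 0.17, adjusted p = 0.301, limma-trend). The growth factor gene Igf2 was at 9.45, 10.4 and 9.16 TPM in WT and at 11.4, 12.1 and 10.7 TPM in mKO (0.22, adjusted p = 0.338). In both genes the mKO libraries lay above the WT libraries. Of 17 other FoxO-like and Krüppel-like factor genes, 0 were called (median 0.02), with the lowest p for Foxk2, a forkhead gene at 20.2, 21.8 and 21.4 TPM in WT and 18.1, 19.8 and 19.2 TPM in mKO (−0.15, adjusted p = 0.460).

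Among 25 genes of the glucocorticoid receptor axis and Klf15 targets, 0 were called. On the log2 scale 21 lay below 0, beside 6782 of all 12301 genes tested, and the median was −0.18, beside −0.01 for all genes. The median ran from −0.26 to −0.09 with 1 library left out. With mitochondrially encoded genes left out, 9 of the 25 were above 0 and the median was −0.06, beside 0.09 for all genes. An unadjusted p under 0.05 was found for 7 genes (28.0%, against 10.7% of all genes). The lowest were Hsd11b1, which regenerates active glucocorticoid, at 3.998, 3.29 and 3.82 TPM in WT and 2.96, 2.73 and 2.51 TPM in mKO (log2 fold change −0.33, SE 0.10, adjusted p = 0.249, limma-trend), and Prodh, proline dehydrogenase (−0.31, SE 0.10, adjusted p = 0.302). Each had all mKO libraries below all WT libraries. The receptor gene Nr3c1 was at 37.1, 38.2 and 43.3 TPM in WT and at 37.0, 41.7 and 38.5 TPM in mKO, which overlapped (−0.01, adjusted p = 0.973).

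Downstream, 1 of 39 other genes described as FoxO targets in muscle was called, Mstn, the myostatin gene, lower in mKO. It was at 1.54, 1.501 and 1.80 TPM in WT and at 0.0361, 0.221 and 0.111 TPM in mKO (log2 fold change −1.22, SE 0.12, adjusted p = 0.00863, limma-trend), and it passed the filter only through WT. It was not called with a replicate block, and it was not tested with a mean of at least 1 TPM or without any 1 WT library. The median of the 39 was −0.01, and 0.11, beside 0.09 for all genes, with mitochondrially encoded genes left out. Mstn is also on the list of 29 cytokine and TGF-beta inputs, where it was the 1 call among 26 tested, lost under the same settings. Of 38 other ubiquitin ligases of muscle, 37 were tested and 0 called (median −0.05, and 0.06, beside 0.09 for all genes, with mitochondrially encoded genes left out). The lowest p was for Asb2, which targets filamin, at 360.5, 343.1 and 365.7 TPM in WT and 271.5, 306.5 and 306.2 TPM in mKO (−0.28, SE 0.06, adjusted p = 0.144), and then for Wwp1, a HECT ligase, at 92.6, 96.4 and 99.1 TPM in WT and 79.5, 78.7 and 90.8 TPM in mKO (−0.21, adjusted p = 0.297). Both had mKO below WT without overlap.

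The machinery that the F-box members work with gave no call. Of 28 SCF core, ubiquitin and E2 genes, 0 were called. On the log2 scale 23 lay below 0 (median −0.05), beside 6782 of all 12301 genes tested. Once mitochondrially encoded genes were left out, 23 of the 28 lay above 0 instead (median 0.07), beside 10422 of 13502 genes. Measured from the median of all genes, the list stood at −0.03, and at −0.02 with mitochondrially encoded genes left out. Cand2, a muscle exchange factor of cullin ligases, was at 68.4, 67.7 and 67.2 TPM in WT and at 61.3, 61.6 and 57.2 TPM in mKO, without overlap (−0.17, SE 0.05, adjusted p = 0.260, limma-trend). Of 22 described substrates of the member ligases, 20 were tested and 1 called, the fast fibre gene Mybpc2 given above (3 called without mKO replicate 3, and 3 of 19 with limma-voom). Their median was −0.12, or −0.0002 with mitochondrially encoded genes left out. Measured from the median of all genes, it stood at −0.10 and at −0.09. The Fbxo32 substrate gene Eif3f was at 92.9 ± 7.24 TPM in WT and at 85.2 ± 2.25 TPM in mKO (SD, n = 3 each; −0.12, adjusted p = 0.576), and Irs1, the Fbxo40 substrate, was at 23.1 ± 3.55 and 22.1 ± 4.17 TPM (−0.07, adjusted p = 0.919). Both overlapped between genotypes.

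**Figure D5:**
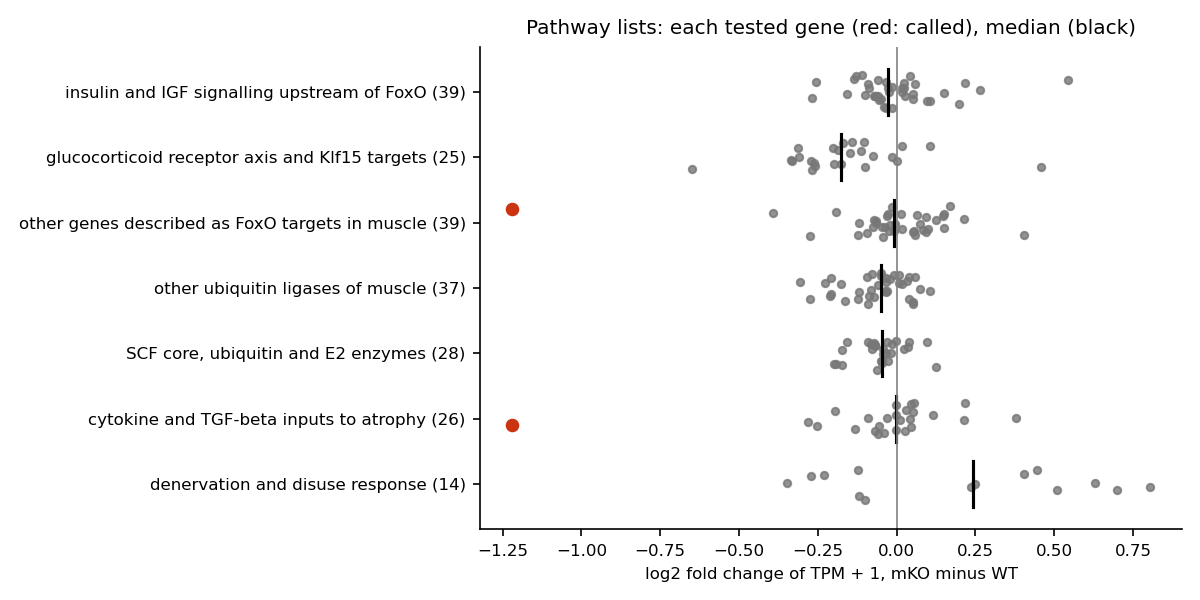
Log2 fold change, mKO minus WT, of every tested gene on 7 pathway lists, with the number tested in parentheses; red points were called and black lines are list medians. The glucocorticoid list has a median of −0.18 and the denervation list of 0.24, and the red point on each of 2 lists is Mstn (−1.22).

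Trim63 and Fbxo32 also rise when a muscle loses its nerve, so a denervation and disuse list was read beside them. Of 19 genes 14 were tested and 0 called (1 without mKO replicate 3), with 8 above 0 and a median of 0.24. Of the 14, 4 had an unadjusted limma-trend p under 0.05 (28.6%, against 10.7% of all genes). Chrnd, an acetylcholine receptor subunit, was at 4.84, 4.58 and 5.32 TPM in WT and at 8.43, 7.77 and 6.17 TPM in mKO, without overlap (log2 fold change 0.51, SE 0.11, adjusted p = 0.141, limma-trend). Myh8, the perinatal myosin, differed by −0.35 (log2, adjusted p = 0.306). With 1 library left out the median of the list ran from 0.08, without mKO replicate 2, to 0.37.

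Lists for other cells of the muscle gave 0 calls. Summed marker levels overlapped between genotypes for satellite cells (82.4 to 93.6 TPM in WT, 78.5 to 92.3 TPM in mKO), macrophages (140.5 to 164.4 and 120.7 to 217.1 TPM), fibroblasts (743.4 to 879.8 and 586.4 to 926.7 TPM), endothelium (246.4 to 261.1 and 242.9 to 251.5 TPM), adipocytes, Schwann cells and blood. Smooth muscle markers summed to 2733 to 2897 TPM in WT and 2577 to 2681 TPM in mKO, without overlap. Of these 8 genes, however, 4 lay above 0 on the log2 scale, and the median was −0.01. The smooth muscle list holds Des, which is also among the genes that define skeletal muscle. All 7 adipocyte and all 5 tested blood genes lay below 0 (medians −0.13 and −0.28). Of 9 macrophage markers tested, 8 lay above 0 (median 0.12). The adipocyte median was 0.13 without WT replicate 2, and the macrophage median −0.07 without mKO replicate 2. The blood median was −0.04 without mKO replicate 1. The satellite, fibroblast, endothelial and Schwann lists held genes on both sides of 0. The part of these other cells in the members' values was not tested.

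By the likeness of log2(TPM + 1) over the 6 libraries, among 7725 genes, the genes most like Trim63 were Gon7 (Pearson r = 0.997) and Nr1h3 (0.987). The genes most like Fbxo32 were Iqsec1 (0.981), Nub1 (0.978) and Tmem181a (0.972). These are descriptions without a test, since the libraries share genotype and scaling and so many genes were compared.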

How the data were processed

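RNA of soleus from 3 WT and 3 StarD7 mKO libraries was sequenced after poly(A) selection with a directional kit, per the labels' protocols. The authors deposited TPM, 1 table for each library, in which reads are corrected for gene length and then brought to the same sum. Per the submitters' processing notes, reads were placed on GRCm39. How they were aligned and counted, and the use of strand, are not given in the sources used here.

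The labels gave each library its group and replicate number. Limma-trend (limma 3.58.1, R 4.3.3) was fitted to log2(TPM + 1) with no term but genotype. It covered the 12301 genes that reached 1 TPM in 3 libraries or more, with Benjamini-Hochberg adjustment over all of them and a threshold of 0.05. Fold changes on this scale understate the change of low genes. TPM multiplied by the exon lengths of GENCODE M21 gave whole reads, within 0.05 reads, for 93.12% of 22734 genes, and these reads served for depth and for limma-voom. Libraries of the same group differed by more than counting error (chi-square over its degrees of freedom 19.6 to 37.6), so all 6 were counted. Under GENCODE M21, Fbxo32 and Foxo1 overlap the opposite-strand genes Gm15943 and Gm20402, whose means were at most 0.0980 and 0.184 TPM.

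The members and lists were chosen with earlier results of these data known. Named were all members, Stard7, up to 4 called genes of each list or the 2 with the smallest p, not all of them printed, and the 3 genes most like Fbxo32 and Trim63. Some genes that the rule picked are not reported here. Foxo6, Nr3c1, Eif3f, Irs1, Trim54, Trim55, Trim72, Myh1 and the genes named only in the closing section were picked with their values in view. The alternatives tried were other pseudocounts (0.1 and 0.5), filters and scalings, mitochondrially encoded genes left out, no intensity trend, a replicate block, limma-voom and each library left out. The overlap of groups on TPM rescaled without mitochondrially encoded genes, and the libraries left out of the ratios, were added after seeing the data. The fit was tested on simulated data, 3 against 3. At a log2 change of 1 it called 85.57% of 97 changed genes and at 2 it called 97.98% of 99, with 12 false calls among 10888 unchanged genes, and smaller changes were not simulated.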

Additional observations from a re-analysis of the deposited data

How the results depend on the processing

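Of all genes, 64 were called in the main setting (12 higher, 52 lower), 6 with no filter on low values, 41 with mitochondrially encoded genes left out (21 higher, 20 lower), 35 with no intensity trend, 21 with a replicate block, and 4 to 94 with 1 library left out, the lowest without WT replicate 2 and the highest without mKO replicate 3. The count of members called was 0 in 15 of 16 alternatives and 1 (Trim63) without mKO replicate 3, so 0 to 1 over the libraries left out. Stard7 was no longer called with no filter (−1.83, adjusted p = 0.0858) or without WT replicate 2 (−1.81, adjusted p = 0.0703), and ran from −2.05 to −1.72 with 1 library left out. Signs turned for Fbxo40 (0.0360) and Klf15 (0.000396) with mitochondrially encoded genes left out, and with 1 library left out for Fbxo30 (−0.00272 to 0.15), Fbxo21 (−0.0224 to 0.159) and Foxo3 (−0.0553 to 0.0837). Fewer samples apart, the cause was not tested. Deviations from the group means correlated only weakly between same-numbered libraries (r = 0.0950, 0.0474 and 0.131). Each library was still most like that of its own number, a hint from the data that does not settle whether the libraries were paired. With the block, 0 members were called and Trim63 had an adjusted p of 0.0868. Its unadjusted limma-trend p was 0.000355, against 0.00599 without the block, and that of Foxo1 was 0.0119, against 0.114. The unadjusted p of Fbxo30, Fbxo31, Fbxo32, Fbxo40 and Foxo4 rose with the block. A median over a list moved by over 1 SD in 25 of 368 cases. Each member had at least 734 recovered reads in every library, and whether depth limited the members was not tested.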

Other observations

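Several members shared a spread within genotype. For 5 of the 10 members, Trim63, Foxo1, Foxo3, Foxo4 and Klf15, replicate 1 was the lowest library in WT and also in mKO, against 15.3% of all genes tested (1878 of 12301). In mKO alone, replicate 1 was lowest for 5693 of the 12301 genes, and its mitochondrially encoded share was the largest (48.9%). With mitochondrially encoded genes left out, Foxo4 was lowest in mKO replicate 2 (135.8 TPM against 138.9 in replicate 1). Fbxo30 was then lowest in replicate 1 of both genotypes, narrowly in WT (25.32 against 25.34 TPM). In the main values of the glucocorticoid receptor axis list, replicate 1 was lowest in both genotypes for 10 of 25 genes. These were Nr3c1, Fkbp5, Tsc22d3, Per1, Klf9, Ddit4, Cebpd, Glul, Mt1 and Mt2, and the rest of the list did not share this. Fkbp5, a chaperone of the receptor, was at 7.01, 11.9 and 12.1 TPM in WT and at 6.04, 11.0 and 7.28 TPM in mKO, the order of libraries seen for Foxo1. Ddit4, an inhibitor of mTORC1, was at 48.5, 70.2 and 106.7 TPM in WT and at 30.8, 87.3 and 34.0 TPM in mKO, a spread within each genotype wider than the difference between the genotype means. The counts were made after the values were seen and have no test. For that list and for all genes, no such count is given with mitochondrially encoded genes left out. The cause of the shared spread was not tested, and the time of day and the handling of the mice are not given in the sources used here.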
